A study of Mus musculus with 15 samples.

Results

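The genes described here are the axon guidance families of semaphorins, plexins, Eph receptors, ephrins, Slits and Robos, as measured in the newborn mouse pituitary. They were found by symbol (Sema and a number, Plxna to Plxnd, Epha, Ephb, Efna and Efnb, Slit1 to Slit3, Robo1 to Robo3), which gave 57 of the 18193 genes measured. The 57 genes fall into 8 families, with 20 semaphorins, 10 plexins, 9 EphA receptors, 4 EphB receptors, 5 ephrin-A genes, 3 ephrin-B genes, 3 Slits and 3 Robos. One of the 10 plexin entries, Plxna4os1, is a transcript from the strand opposite Plxna4 and not a receptor. The 57 genes have 128 probe sets, and each gene was followed on the probe set with the highest mean signal.

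Semaphorins are secreted or membrane-bound ligands, and plexins are their receptors, which for most secreted semaphorins act together with neuropilins. Ephrins are held on the surface of one cell and bind Eph receptor tyrosine kinases on a neighbouring cell, so that both cells can respond. Slits are secreted proteins that act on Robo receptors, and all of these systems steer axons, blood vessels and migrating cells in developing tissue.

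Each array measured 1 pool of pituitary RNA from postnatal day 1 mice of the DW/J strain, with 5 pools from Pit1 +/+ mice and 5 from Pit1 dw/dw mice. The dw allele is that of the Snell dwarf mouse, and Pit1 is the POU-domain factor required for somatotrophs, lactotrophs and thyrotrophs. The mice of both groups received a high fat chow. How many pituitaries went into each pool was not stated in the labels. In pooled tissue, fewer cells of a type and less RNA per cell cannot be told apart.

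Some pools stood apart before any guidance gene was considered. Growth hormone (Gh) had a mean of 14.22 log2 units in Pit1 +/+ and 8.82 in Pit1 dw/dw, and all 5 measured markers of Pit1-dependent cells fell in dw/dw. Prph, a peripheral neuron filament gene, was above 7 in wild-type pool 3 and in dw/dw pools 2 and 3. Xist, transcribed from the inactive X of females, was at 3.69 in wild-type pool 4 and at 4.20 and 3.89 in dw/dw pools 2 and 3, and between 9.60 and 11.1 in the other 7 pools. Eif2s3y, a gene of the Y chromosome, was at 3.05 in wild-type pool 1 and between 8.45 and 10.35 in every other pool. The genotype field of wild-type pool 1 contradicts its title, source and strain fields, and the title was followed. On 11 genes chosen without it, its median position was 2e-04 of the way from wild type to dw/dw. Markers of neural lobe and hypothalamus stayed low, with list means between 3.81 and 4.17.

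No guidance gene passed the threshold between Pit1 dw/dw and Pit1 +/+. A gene passed where its Benjamini-Hochberg adjusted p, over all 18193 genes in the limma fit, was under 0.05. The nearest was Sema5a, whose level was 1.64-fold lower in dw/dw (adjusted p = 0.0581) and whose pools did not overlap between the groups. At an unadjusted p under 0.05, Sema5a, Robo3, Plxna3 and Efnb2 were lower in dw/dw, and Epha10, Epha5 and Sema3a were higher.

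By adjusted p 0 of 57 guidance genes passed in limma, against 0.77% of all genes. At an unadjusted p under 0.05 they were 7 of 57 (12.3%), against 8.46% of all genes. The pools of the groups did not overlap for 1 guidance gene (1.75%), against 2.78% of all genes. Differences in dw/dw minus wild type were above 0 for 34 of 57 guidance genes (59.6%) and for 45.2% of all genes. The median log2 difference was 0.05 over the guidance genes, with a range from -0.71 to 0.66, and -0.02 over all genes. The median size of a difference, whatever its sign, was 0.124 for the guidance genes and 0.121 for all genes.

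The 95% interval of the difference lay within a 2-fold change either way for 52 of the 57 genes. It reached a 2-fold change for Sema3b, Sema3g, Sema4f, Sema5a and Slit3. Of these, Sema5a had the largest difference in size, and the other 4 were the guidance genes with the largest spread between pools. The narrowest intervals were those of Efnb1, from -0.13 to 0.29, and Epha2, from -0.16 to 0.26, the guidance genes with the smallest spread between pools. Epha2 was dim, with group means of 3.37 and 3.42, under the median of all values, 4.37. Another Efnb1 probe set had a difference of 0.54 (SE 0.278). The 7 genes with an unadjusted p under 0.05 are those whose interval, not adjusted for the number of genes, leaves out 0.

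**Figure D1:**
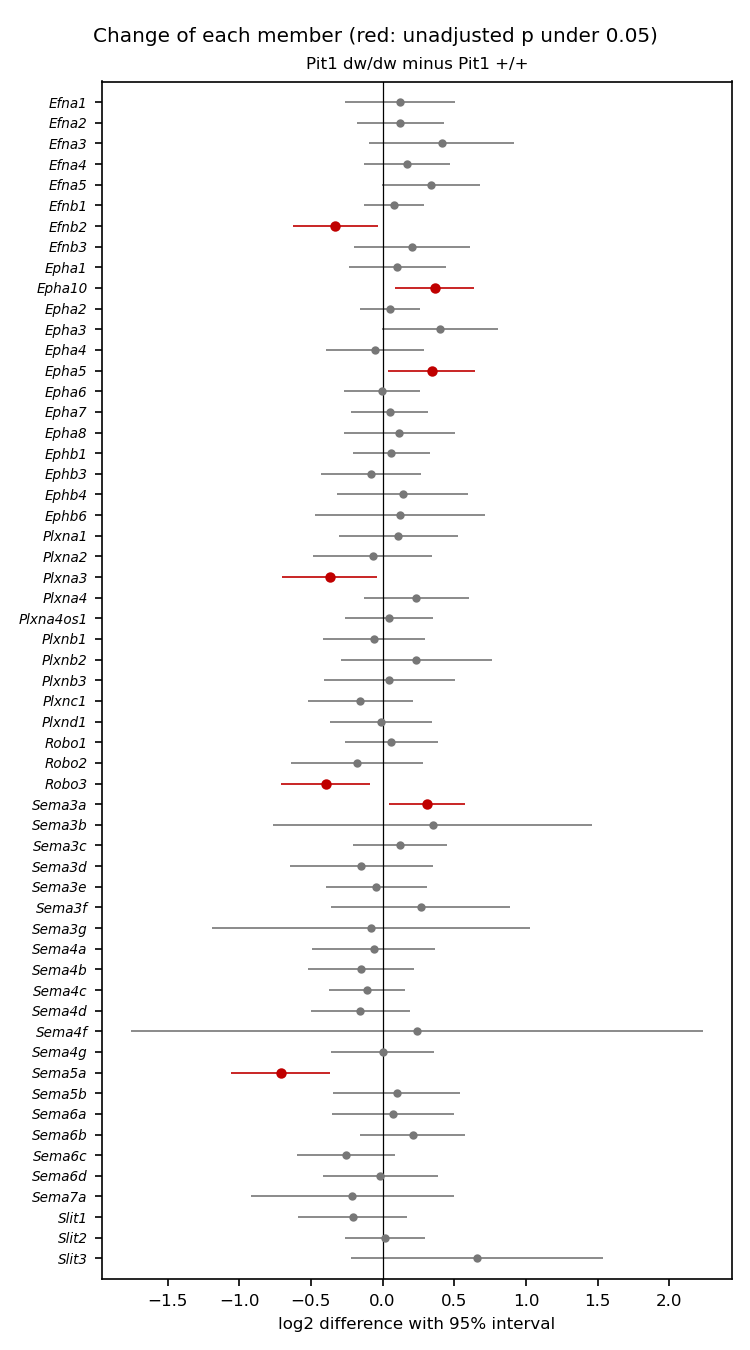
Log2 difference (horizontal axis, log2 units) of each of the 57 guidance genes in Pit1 dw/dw minus Pit1 +/+, with points for the fitted difference, bars for its 95% interval and red for an unadjusted p under 0.05. Sema5a lies farthest to the left, at -0.71, and the widest bar is that of Sema4f.

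The sequences before the start sites of 4 genes are shown: those of Sema5a, Epha10 and Robo3, which had the 3 smallest p-values, and that of Sema4f, which alone among the matched guidance genes holds a core of Pit1 sites. They are the 250 bases upstream of the RefSeq start on GRCm38.p6, read 5′ to 3′ on the gene's strand, with a match to TATNCAT on either strand, that core, in capitals. Sema5a lies on the plus strand with this stretch at chr15:32244563-32244812, and Epha10 on the plus strand at chr4:124881535-124881784. Robo3 lies on the minus strand at chr9:37433176-37433425, and Sema4f on the minus strand at chr6:82939770-82940019.
Sema5a: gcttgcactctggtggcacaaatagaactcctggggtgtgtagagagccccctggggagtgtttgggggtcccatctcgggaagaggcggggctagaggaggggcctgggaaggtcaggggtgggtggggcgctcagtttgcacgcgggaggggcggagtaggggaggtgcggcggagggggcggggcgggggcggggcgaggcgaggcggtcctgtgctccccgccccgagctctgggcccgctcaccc
Epha10: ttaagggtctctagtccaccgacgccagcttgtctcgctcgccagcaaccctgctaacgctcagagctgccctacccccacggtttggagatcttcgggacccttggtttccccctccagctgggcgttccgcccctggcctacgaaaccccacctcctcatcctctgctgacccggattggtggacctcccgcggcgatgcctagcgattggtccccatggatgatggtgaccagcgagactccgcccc
Robo3: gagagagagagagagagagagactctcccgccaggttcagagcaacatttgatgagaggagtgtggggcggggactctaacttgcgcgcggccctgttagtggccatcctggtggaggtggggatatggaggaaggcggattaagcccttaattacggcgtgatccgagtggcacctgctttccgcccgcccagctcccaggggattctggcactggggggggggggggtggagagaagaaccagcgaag
Sema4f: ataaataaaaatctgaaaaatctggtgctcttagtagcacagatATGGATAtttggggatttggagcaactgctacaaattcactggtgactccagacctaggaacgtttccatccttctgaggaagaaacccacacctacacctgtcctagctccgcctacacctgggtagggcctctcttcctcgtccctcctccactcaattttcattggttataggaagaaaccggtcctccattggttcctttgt
The GC content was 72% for Sema5a, 63.6% for Epha10, 61.2% for Robo3 and 46% for Sema4f. The match in Sema4f begins 206 bases before the start. Of the 57 guidance genes 49 were matched by symbol to 65 RefSeq promoters, and TATNCAT was in 1 of the 65 and in 7.92% of the 32851 promoters searched on both strands. A match describes letters in this window and not a site in use.

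Among the 20 semaphorins, Sema5a stood nearest to the threshold. Sema5a and Sema5b are transmembrane semaphorins with thrombospondin repeats. Sema5a read 6.65, 6.53, 6.74, 6.56 and 6.23 in wild-type pools 1 to 5 and 5.43, 5.80, 6.11, 6.05 and 5.76 in dw/dw. Every dw/dw pool lay under every wild-type pool, and dw/dw pool 1 was the lowest of all. The means were 6.54 ± 0.19 in wild type and 5.83 ± 0.27 in dw/dw (SD, n = 5 each), a log2 difference of -0.71 with a 95% interval from -1.06 to -0.37 (SE 0.163, limma adjusted p = 0.0581). Without wild-type pool 5, its lowest in that group, the gene passed with a difference of -0.79 (adjusted p = 0.0365). It also passed with array weights (limma adjusted p = 0.00376) and with the ganglion neuron list as a covariate (0.00504). It passed in 4 of 24 alternatives, with an adjusted p from 0.00376 to 0.847. On this probe set it did not pass without the pools with Prph above 7 (0.187) or with arrays centred on their medians (0.127). Nor did it pass on leaving out any single pool other than wild-type pool 5. The high end came from its probe sets: the other 3 had differences of 0.16, -0.10 and 0.17, and the mean of the 4 had -0.12 (adjusted p = 0.847). Of those 3, 2 were dim, with group means from 2.66 to 3.00.

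Sema5b, its close relative, read 5.44, 4.82, 5.27, 5.16 and 4.48 in wild type and 5.01, 5.15, 5.61, 5.07 and 4.82 in dw/dw. The groups overlapped over most of their range, and the difference was 0.10 with a 95% interval from -0.34 to 0.54 (adjusted p = 0.967).

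Of the secreted class 3 semaphorins, Sema3a, a repellent of sensory axons, had the smallest p. It read 8.51, 8.71, 8.19, 8.53 and 8.30 in wild-type pools 1 to 5 and 8.71, 8.89, 8.48, 8.79 and 8.93 in dw/dw. The dw/dw pools were high as a group, but pools 1 and 3 lay within the wild-type range. The difference was 0.31 (8.45 ± 0.21 against 8.76 ± 0.18, SD, n = 5 each; SE 0.126, limma adjusted p = 0.483). Its other 2 probe sets had differences of 0.24 and 0.07.

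Other class 3 genes, chosen after their values were seen, were far from the threshold. Sema3f, a neuropilin ligand that repels axons, read 6.15, 5.78, 6.18, 5.94 and 4.58 in wild type and 5.47, 5.99, 6.03, 6.30 and 6.16 in dw/dw. Wild-type pool 5 stood far below its group, and the difference was 0.26 with a 95% interval from -0.36 to 0.89. Sema3c, known from the outflow tract of the heart, lay from 6.78 to 7.58 in wild type and from 7.05 to 7.67 in dw/dw. Sema3d and Sema3e had differences of -0.15 and -0.04. Over the 20 semaphorins the median difference was -0.03. Of them 2 genes (10%), Sema5a and Sema3a, had an unadjusted p under 0.05 in limma, against 8.46% of all genes.

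**Figure D2:**
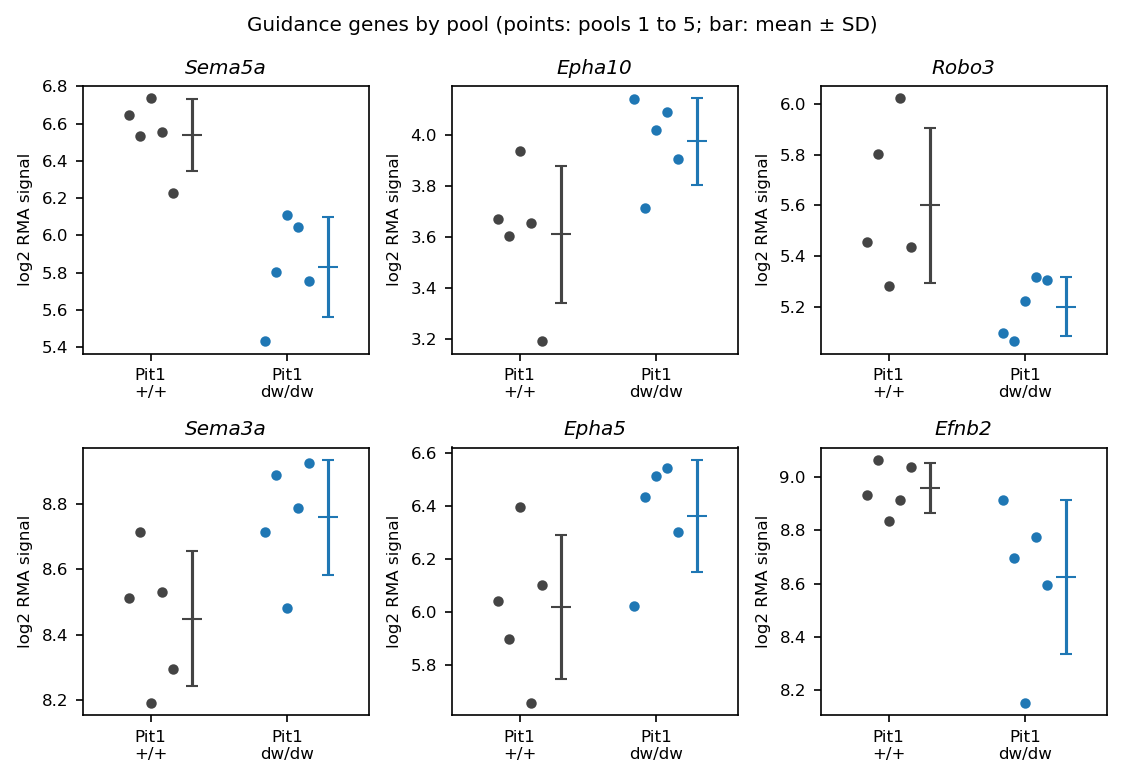
Log2 RMA signal (vertical axes, not starting at 0) of the 6 guidance genes with the smallest p-values in each pool of Pit1 +/+ (grey) and Pit1 dw/dw (blue), with points for pools 1 to 5 and bars for the group mean ± SD. The groups are apart for Sema5a, where the highest dw/dw pool is at 6.11 and the lowest wild-type pool at 6.23, and overlap for the other 5 genes.

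Among the plexins, Plxna3 had the smallest p. Plexin-A3 is a receptor that signals with neuropilins for class 3 semaphorins. It read 5.47, 5.21, 5.41, 5.08 and 4.97 in wild-type pools 1 to 5 and 4.79, 5.23, 4.72, 4.90 and 4.66 in dw/dw. Of the dw/dw pools, 4 lay under every wild-type pool, and pool 2 lay within the wild-type range. The difference was -0.37 (5.23 ± 0.21 against 4.86 ± 0.22, SD, n = 5 each; SE 0.156, limma adjusted p = 0.515). The second, dim probe set had a difference of -0.30, of the same sign, and with the mean of both the difference was -0.33 (adjusted p = 0.258).

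Plxna4, a receptor for class 3 and class 6 semaphorins, was dim. It read 3.06, 3.09, 2.86, 3.32 and 3.13 in wild type and 3.19, 2.99, 3.27, 3.37 and 3.81 in dw/dw. Pool 5 was the highest of dw/dw, the groups overlapped, and the difference was 0.23 with a 95% interval from -0.13 to 0.60 (adjusted p = 0.813). Plxnb2, a receptor for class 4 semaphorins chosen after its values were seen, read 9.05, 8.59, 8.67, 8.89 and 7.32 in wild type and lay from 8.51 to 8.94 in dw/dw. Its difference of 0.23 (SE 0.248, adjusted p = 0.897) stands beside the low value of wild-type pool 5. Plxna1 and Plxnc1 had narrow ranges in dw/dw, 7.54 to 7.75 and 6.06 to 6.17, where wild type ran from 6.76 to 7.96 and from 5.77 to 6.56. The median difference over the 10 plexin entries was 0.02.

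Of the ephrin-A genes, all 5 had positive differences, from 0.12 to 0.41, and 0 passed in limma or had an unadjusted p under 0.05. Efna5 encodes a GPI-anchored ephrin that binds EphA receptors and is known for shaping the retinal map in the midbrain. It read 7.51, 7.75, 7.16, 7.66 and 7.88 in wild-type pools 1 to 5 and 7.70, 7.98, 7.81, 7.94 and 8.22 in dw/dw. Wild-type pool 3 was the lowest and dw/dw pool 5 the highest, and the other pools interleaved. The difference was 0.34 (SE 0.160, adjusted p = 0.598), and that of the second, dim probe set was 0.10.

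Efna3, also an EphA ligand, had the largest difference of the ephrins, 0.41 (SE 0.238, adjusted p = 0.707). It read 5.13, 3.62, 5.04, 4.56 and 4.49 in wild type and 5.27, 4.80, 5.27, 4.79 and 4.78 in dw/dw. Wild-type pool 2 was low, and wild-type pools 1 and 3 lay among the dw/dw pools. Its second probe set had a difference of 0.16.

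Of the ephrin-B genes, Efnb2, a transmembrane ephrin known as a marker of arterial endothelium, was lower in dw/dw at an unadjusted p under 0.05. It read 8.93, 9.06, 8.84, 8.92 and 9.04 in wild-type pools 1 to 5 and 8.91, 8.69, 8.15, 8.77 and 8.59 in dw/dw. The wild-type pools lay close together, dw/dw pool 1 lay among them, and dw/dw pool 3 was the lowest. The difference was -0.33 with a 95% interval from -0.63 to -0.03 (8.96 ± 0.09 against 8.63 ± 0.29, SD, n = 5 each; SE 0.139, limma adjusted p = 0.510). Its next brightest probe set had a difference of -0.11. Of 8 endothelial markers 0 passed in limma and 1 had an unadjusted p under 0.05, with list means from 6.39 to 6.86 in wild type and 6.54 to 7.10 in dw/dw. Efnb3 lay from 6.38 to 7.41 in wild type and from 6.52 to 7.51 in dw/dw, with a difference of 0.21 (adjusted p = 0.875).

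Among the EphA receptors, Epha10 and Epha5 were higher in dw/dw at an unadjusted p under 0.05. EphA10 is a family member whose kinase domain lacks residues needed for catalysis. Epha10 read 3.67, 3.60, 3.94, 3.65 and 3.19 in wild-type pools 1 to 5 and 4.14, 3.72, 4.02, 4.09 and 3.91 in dw/dw. Wild-type pool 3 lay among the dw/dw pools and dw/dw pools 2 and 5 lay within the wild-type range. The difference was 0.36 with a 95% interval from 0.09 to 0.64 (SE 0.130, adjusted p = 0.366). All of these levels lie under the median of all values, 4.37, so the gene is dim, and Epha10 has 1 probe set, so its values have no second measure.

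Epha5, a receptor for ephrin-A ligands that is abundant in developing brain, read 6.04, 5.90, 6.40, 5.66 and 6.11 in wild-type pools 1 to 5. It read 6.02, 6.43, 6.51, 6.54 and 6.30 in dw/dw. Of the dw/dw pools 3 lay over every wild-type pool, and pools 1 and 5 lay within the wild-type range. The difference was 0.34 (6.02 ± 0.27 against 6.36 ± 0.21, SD, n = 5 each; SE 0.143, limma adjusted p = 0.497). All 4 of its probe sets had positive differences, and the other 3 had 0.34, 0.56 and 0.28. With the mean of the 4 the difference was 0.38 (adjusted p = 0.157), and with array weights it was 0.47 (adjusted p = 0.0521), so it did not pass in either.

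Epha3, chosen after its values were seen, had the largest difference of the EphA genes. It read 6.56, 6.33, 6.11, 6.37 and 5.60 in wild type and 6.58, 6.55, 6.48, 6.88 and 6.49 in dw/dw. Wild-type pool 1 lay within the dw/dw range, and the difference was 0.40 (SE 0.191, adjusted p = 0.605). The next brightest Epha3 probe set had a difference of 0.66, and the dim ones had 0.13 and -0.04. The median over the 9 EphA receptors was 0.10.

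The 4 EphB receptors measured, Ephb1, Ephb3, Ephb4 and Ephb6, were far from the threshold, with a median difference of 0.09. Ephb2 is not among the 57 genes. Ephb4, a receptor known from venous endothelium, lay from 4.91 to 5.87 in wild type and from 5.04 to 5.98 in dw/dw. Its difference was 0.14 with a 95% interval from -0.32 to 0.60 (adjusted p = 0.945). Ephb3, which binds ephrin-B ligands, lay from 3.57 to 4.56 in wild type and from 4.04 to 4.27 in dw/dw. Wild-type pool 5 was its lowest, and the difference was -0.08 (adjusted p = 0.964).

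Among the Slit ligands, Slit2 was even on its brightest probe set, between 9.85 and 10.56 in all 10 pools. Its difference was 0.02 with a 95% interval from -0.26 to 0.29. The next brightest Slit2 probe set had a difference of 0.18 with a wider error (SE 0.328), and the dim one had 0.09. Slit1 read 5.46, 5.17, 5.74, 5.05 and 5.21 in wild type and 5.48, 4.75, 5.32, 5.08 and 4.95 in dw/dw. The groups overlapped, and the difference was -0.21 (SE 0.179, adjusted p = 0.858), beside -0.52 for its second probe set.

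Slit3 had the largest positive difference of all guidance genes, 0.66 (SE 0.413, adjusted p = 0.743). It read 5.64, 3.93, 5.46, 5.56 and 3.32 in wild-type pools 1 to 5 and 5.32, 5.00, 5.66, 5.64 and 5.60 in dw/dw. Wild-type pools 2 and 5 were low, and the other 3 wild-type pools lay within the dw/dw range. The difference ranged from 0.10 to 1.03 over the alternatives and passed in none of them.

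Of the Robo genes, Robo3 had the smallest p. It is known for its role in letting commissural axons cross the midline, and the mammalian protein has lost the high-affinity Slit binding of its relatives. It read 5.45, 5.80, 5.28, 6.02 and 5.44 in wild-type pools 1 to 5 and 5.10, 5.07, 5.22, 5.32 and 5.31 in dw/dw. The dw/dw pools lay close together at the low end, and wild-type pool 3 lay within their range. The difference was -0.40 with a 95% interval from -0.71 to -0.09 (5.60 ± 0.30 in wild type, SD, n = 5; SE 0.147, limma adjusted p = 0.398). The second Robo3 probe set, dim at 3.28 and 3.31 in the group means, had a difference of 0.03, and the mean of both had -0.18 (adjusted p = 0.732). Robo1, a Slit receptor, lay between 8.15 and 8.87 in all 10 pools, with a difference of 0.06 and a 95% interval from -0.27 to 0.39. The other Robo1 probe sets, both dim, had differences of -0.18 and 0.46. Robo2 was dim, between 2.95 and 4.09, and its difference was -0.18 (adjusted p = 0.918).

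For guidance genes and for all genes, the median within-group SD (0.273 and 0.241) exceeded the median size of a difference (0.124 and 0.121). Sema4f, a transmembrane semaphorin expressed in neurons and chosen after its values were seen, had the largest within-group SD of the 57, above that of 99.7% of all genes. It read 5.43, 5.17, 8.59, 4.58 and 3.91 in wild-type pools 1 to 5 and 4.76, 5.73, 7.65, 5.31 and 5.42 in dw/dw. The highest values are in the 3 pools in which Prph was above 7. Prph is 1 marker of the ganglion list, and dw/dw pool 5, with Prph at 3.51, had a list mean of 7.23, near the 7.44 of dw/dw pool 2. Sema4f in dw/dw pool 5, at 5.42, was level with wild-type pool 1, at 5.43, whose list mean was 5.13. Its probe set is of the _x_at type, which can also bind similar transcripts, and its difference between the groups was 0.24 with a 95% interval from -1.76 to 2.24.

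Sema4f, Sema3b, Sema4c and Ephb1 were each higher in all 3 of those pools than in the other 7. This held for 4 of 57 guidance genes and 1.23% of all genes. The opposite order, lower in all 3, held for 0 of 57 and 1.16% of all genes. Sema3b, a secreted semaphorin, read 5.88, 4.60, 6.75, 4.97 and 4.24 in wild type and 4.91, 5.90, 6.52, 5.03 and 5.84 in dw/dw. Its values in dw/dw pool 2 and wild-type pool 1 were close, at 5.90 and 5.88. For Sema4c those pools were both at 6.41, and Ephb1 was at 5.75 in wild-type pool 3 and 5.74 in wild-type pool 2, so the order of 3 of the 4 genes rests on very small margins. One of the other 7 pools, dw/dw pool 5, also carried part of the ganglion markers. There Nefl was at 10.76 and Pou4f1 at 8.98, but Avil at 4.55 and Scn10a at 3.31 were low, like Prph. Sensory ganglion neuron markers, 10 in all, had list means from 4.75 to 9.91 in wild type and from 5.27 to 9.23 in dw/dw. Of these 10 markers 0 passed between the groups in limma, and 0 had an unadjusted p under 0.05.

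**Figure D3:**
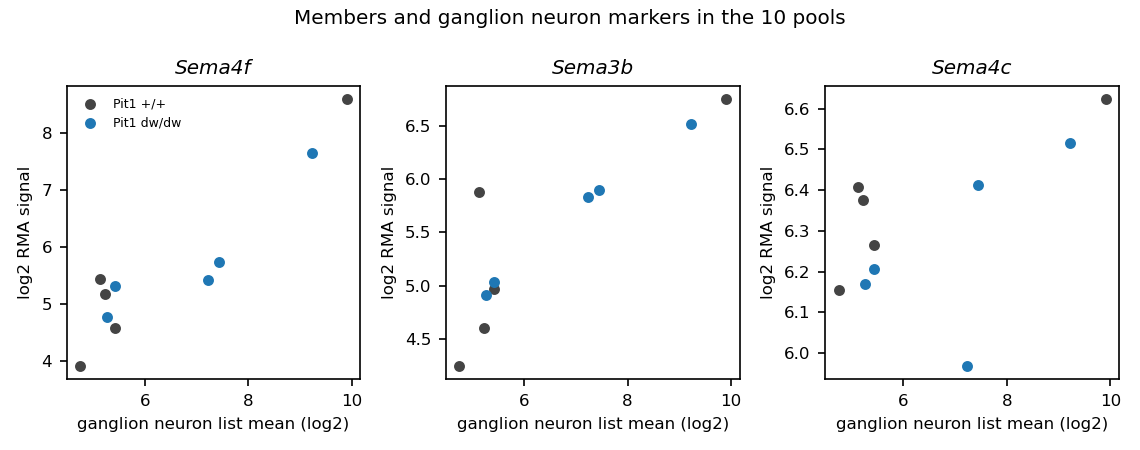
Log2 RMA signal of Sema4f, Sema3b and Sema4c (vertical axes, not starting at 0) against the mean log2 signal of 10 sensory ganglion neuron markers (horizontal axis) in the 10 pools, coloured by group. The pool with the highest marker mean in each group, pool 3, has the highest Sema4f value of that group, 8.59 in wild type and 7.65 in dw/dw.

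Wild-type pool 5 stood at the low edge of its group for many guidance genes. It was the lowest wild-type pool in 30 of 57 (52.6%), against 40.4% of all genes. Wild-type pool 3 was the highest of its group in 21 of 57 (36.8%), against 21.3% of all genes, and dw/dw pool 4 was the highest of its group in 18 of 57 (31.6%), against 20.6%. The median within-group SD was 0.273 over the guidance genes and 0.241 over all genes. Sema3g, Sema3b and Slit3 followed Sema4f in spread, with SDs of 0.976, 0.861 and 0.790. Sema3g, a secreted semaphorin, ranged from 4.24 to 7.20 in wild type and from 4.97 to 6.02 in dw/dw, and its difference was -0.08 with a 95% interval from -1.19 to 1.03.

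**Figure D4:**
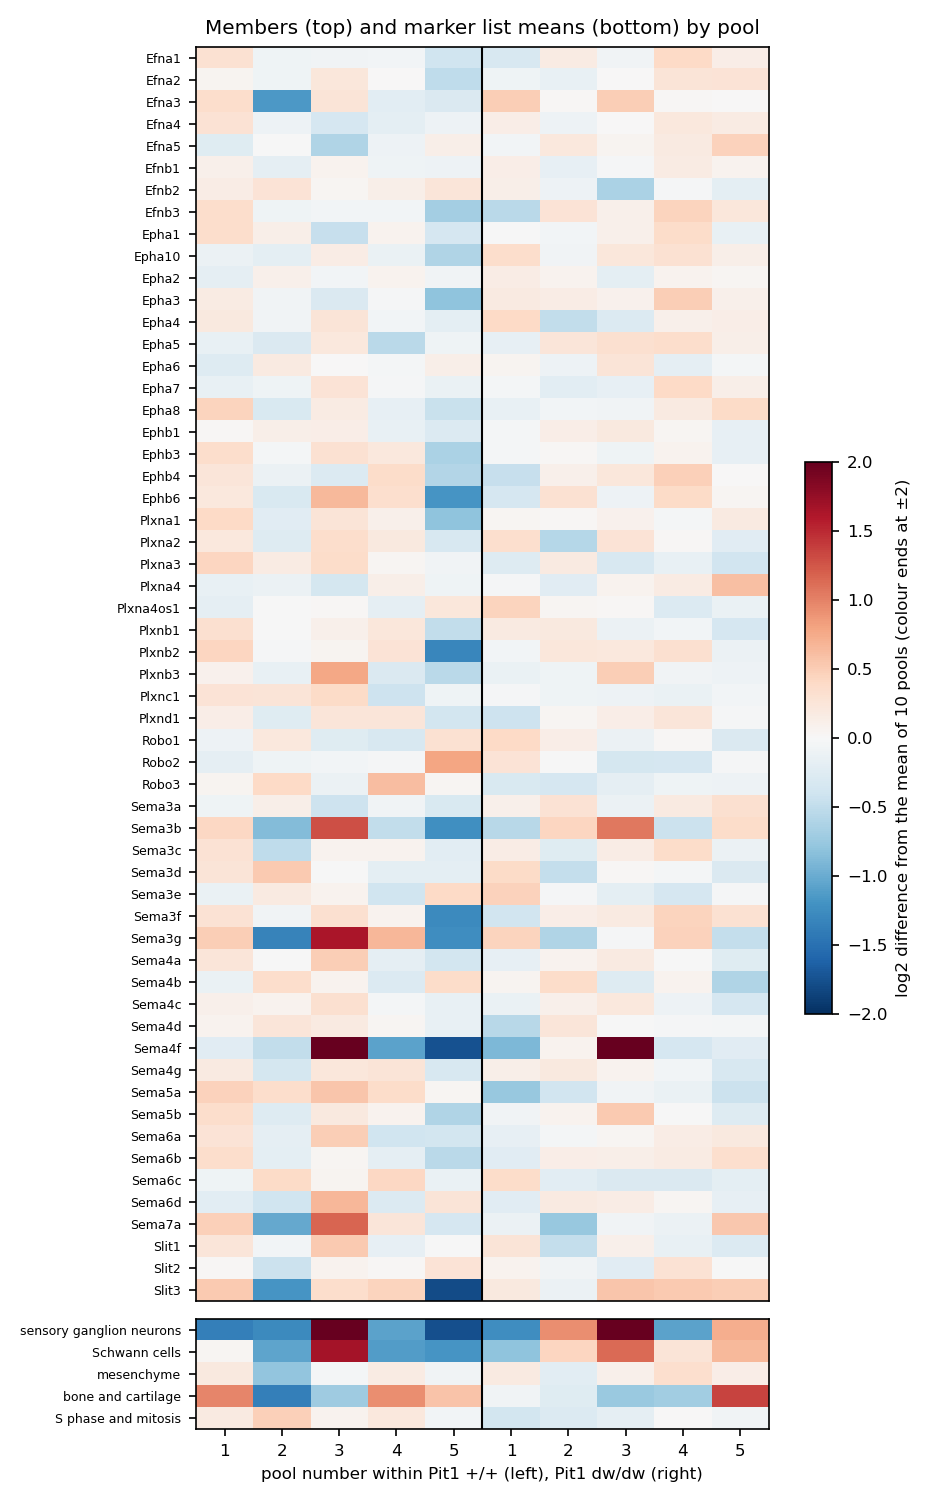
Log2 difference of each guidance gene (upper block) and of 5 marker list means (lower block) from its mean over the 10 pools, with pools in columns by group and colour ending at ±2 log2 units. Sema4f and the ganglion neuron list are high in pool 3 of both groups, and wild-type pool 5, the lowest of its group in 30 of 57 genes, is blue for many of them.

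Markers of other tissues and of the cell cycle are given beside these values. List means of 8 mesenchyme markers ran from 8.89 to 9.87 in wild type and from 9.48 to 10.02 in dw/dw, and those of 8 bone and cartilage markers from 4.06 to 6.41 and from 4.70 to 6.79. Of each list 0 passed in limma and 1 had an unadjusted p under 0.05. List means of 9 S phase and mitosis genes ran from 7.53 to 8.06 in wild type and from 7.22 to 7.59 in dw/dw, and 0 of the 9 passed while 3 had an unadjusted p under 0.05. With the S phase list mean as a covariate the differences of Sema5a, Robo3 and Plxna3 were -0.44, -0.23 and -0.19. Each was smaller in size than the -0.71, -0.40 and -0.37 without it by more than 1.5 times (limma adjusted p = 0.256, 0.530 and 0.624). The other guidance genes with an unadjusted p under 0.05 went both ways. Sema3a and Epha5 had 0.27 and 0.26, against 0.31 and 0.34, while Efnb2 and Epha10 had -0.43 and 0.43, against -0.33 and 0.36. The list means of the groups overlapped only from 7.53 to 7.59, so this covariate and genotype can hardly be told apart. With the mesenchyme list the differences of Sema5a, Robo3 and Plxna3 were -0.72, -0.41 and -0.36, and with the bone list -0.73, -0.40 and -0.38.

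Partners of these families were read from lists of co-receptors, related guidance signals and intracellular effectors. Of 9 co-receptors 0 passed in limma and 1 had an unadjusted p under 0.05. This was Kdr, a VEGF receptor of endothelium that also works beside plexins, with a difference of 0.48 (SE 0.221, adjusted p = 0.582). The neuropilins Nrp1 and Nrp2, which bind class 3 semaphorins, had differences of 0.16 and 0.13. Of 18 netrin, RGM, draxin and FLRT genes 0 passed in limma and 1 had an unadjusted p under 0.05, the adhesion protein gene Flrt1, with 0.37 (SE 0.128, adjusted p = 0.349).

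Among intracellular effectors the counts were similar. Over all genes 0.77% passed in limma and 8.46% had an unadjusted p under 0.05. Of 17 Eph and ephrin effectors 0 passed in limma and 1 had an unadjusted p under 0.05, the Ras GTPase activator Rasa1, with 0.40 (SE 0.180, adjusted p = 0.551). Of 20 semaphorin and plexin effectors and of 10 Slit-Robo effectors 0 passed in limma and 0 had an unadjusted p under 0.05. The median differences were 0.16 for the co-receptors, 0.01 for the netrin and related genes, 0.02 for the semaphorin and plexin effectors, -0.04 for the Eph and ephrin effectors and 0.05 for the Slit-Robo effectors, beside -0.02 over all genes.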

How the data were processed

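Pituitary RNA was hybridised to Affymetrix mouse genome arrays as biotin cRNA, after extraction with the Ambion RNAqueous Micro kit, per the labels. The authors deposited log2 signals made with RMA, per the submitters' processing notes, which corrects background, normalises by quantiles and summarises probes. RMA is named there with version, settings and chip definition not given in the sources used here. Array medians ran from 4.31 to 4.43, and the number of arrays limits the precision.

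Of 45101 probe sets, 64 controls were set aside, and 34945 name 1 gene in the platform annotation, 932 several and 9160 none. Each of 18193 genes was represented by the probe set that was brightest on average across the 15 arrays. Of the 57 guidance genes, 38 have several probe sets, which had the same sign in 20 of the 38. RMA levels of different probe sets are not compared.

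Groups were taken from the titles, and group means were fitted by lmFit and eBayes of the limma package (3.58.1, R 4.3.3), with two-sided p-values adjusted by Benjamini-Hochberg over all genes. The fit of 15 arrays estimates the spread also from 5 arrays of another group, whose results are not reported here. The titles call the pools biological replicates, but nothing says that they are separate litters. The p-values measure the spread between these pools, part of which may be technical. The procedure was tested on simulated data with independent pools and log2 changes of 1 or more, so the test does not cover smaller changes such as those of the guidance genes. The members and lists were chosen with earlier results of these data known. Guidance genes are given by pool where they passed, differed by a log2 value of 1 or more, or had one of the 2 smallest p-values of their family; the rule was applied to the comparison reported, and it named 16 genes. The others were chosen after their values were seen.

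Alternatives were centring on array medians, mean probe sets, filters on dim probe sets and on suffixes, array weights, a robust prior with an intensity trend, the replicate number as a block, a fit of the compared groups alone, covariates for ganglion neuron and Xist levels, leaving out pools with Prph above 7, and leaving out each pool. Covariates for mesenchyme, bone and cartilage, and S phase lists were added after seeing the data.

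Other marker lists were read in the same fit. Of 6 macrophage, 6 muscle and 5 Schwann cell markers and 5 pituitary identity genes 0 passed in limma, and 0 had an unadjusted p under 0.05. Of 8 markers of other pituitary cells 2 rose in dw/dw, Nr5a1 and Gnrhr, and 4 had an unadjusted p under 0.05. Of 7 neural lobe and hypothalamus markers 0 passed in limma and 2 had an unadjusted p under 0.05. Of 4 sex-linked genes 0 passed in limma, and 0 had an unadjusted p under 0.05.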

Additional observations from a re-analysis of the deposited data

Results flagged for a closer look

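Of 114 sets of 5 pools, 1 for each guidance gene and group, 6 had a highest or lowest pool that stood far from the other 4, and chance alone marks about 1 in 20. Wild-type pool 5 was low for Plxnb2 (7.32, with the next pool at 8.59) and for Sema3f (4.58, next 5.78), and high for Robo2 (4.09, next 3.27). In dw/dw, pool 4 was high for Epha3 (6.88, next 6.58), pool 3 for Plxnb3 (5.88, next 5.33) and pool 1 for Sema6c (4.26, next 3.69).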

How the results depend on the processing

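Of the 16 guidance genes named by the rule, 1 passed under any alternative: Sema5a, in 4 of 24. Signs held in all alternatives run for 15 of the 16, and Ephb4 turned to -0.0018 with array weights, without a call. Guidance genes that passed, 0 as reported, were 1 with array weights, with the replicate block and with the ganglion covariate, and 0 to 1 leaving out 1 pool (1 without wild-type pool 5). The gene was Sema5a each time, with an adjusted p of 0.0165 under the replicate block. Of all genes 140 passed, 571 with array weights, 137 with the replicate block and 179 with the ganglion covariate. They were 51 without the Prph pools, 60 with the S phase covariate and 83 to 161 leaving out 1 pool. The count fell by over 1.5 times without wild-type pool 2 or 4 (86 each) or dw/dw pool 2, 4 or 5 (83, 93 and 90). The causes were not tested, except that fewer pools were fitted where pools were left out. Whether replicate numbers pair the pools is not settled: correlations of deviations ran from -0.20 to 0.64, and 5 of 10 pools correlated best with their own number. The replicate block is therefore given here alone. Signals under the overall median limit what dim genes can show: 11 of 57 lay under it in both groups.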
